A study of Mus musculus with 338 samples.

Results

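The response of islets from the inbred mouse strain 129S2/SvPas to 30 days of a High Fat, High Sugar diet (HFHS) was measured against Regular Chow (RC). All mice that carry these strain, diet and time labels were used, 7 on HFHS and 8 on RC, which are 15 of the 338 mice in the series. The series covers 6 inbred strains, the same 2 diets and 4 time points (days 2, 10, 30 and 90), with RNA sequenced from the pancreatic islets of 1 mouse per library. The labels name no transgene, injected agent, age or sex, and no clock time at which islets were taken. Islets were isolated from each mouse, at least 150 per mouse, so a library holds beta, alpha, delta and PP cells together with whatever exocrine, stromal, vascular and immune cells came along.

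Islet cells carry their own circadian clock. The factor BMAL1, encoded by Arntl, pairs with CLOCK or NPAS2 and turns on genes with an E-box, among them the Per, Cry and REV-ERB genes (Nr1d1, Nr1d2) and the PAR bZIP factors Dbp, Tef and Hlf. REV-ERB proteins then repress, and ROR proteins activate, a set of genes with a ROR element that includes Arntl, Npas2 and Nfil3, so these peak at the opposite phase of the day from Dbp and Tef. Beta cells also read their metabolic state through mitochondrial fuel oxidation, whose entry step for long-chain fatty acids is CPT1A, and through cyclic AMP, made by adenylyl cyclases, which amplifies insulin release.

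The libraries held 15026688 to 30067972 reads assigned to genes. All 15 were closest to 129S2/SvPas over 60 strain marker genes, and all 15 had the Y-linked Ddx3y above and Xist below 10 CPM (counts scaled to the library's assigned reads). Insulin transcripts (Ins1 plus Ins2) made up 17.9 to 22.4% of the reads in HFHS mice and 14.2 to 21.8% in RC mice, a difference of 1.91 percentage points (exact permutation test, two-sided, p = 0.0928). Libraries stood apart in several ways. The RC mouse 6RC30 had the highest heat shock transcripts. Its Hspa1b was 213.5 CPM (at most 35.9 in the others), Hspa1a 167.5 CPM (31.1) and Hspb1 17.6 CPM (5.76). The RC mouse 6RC25 had the lowest slope of expression on gene GC content (-0.37, against 0.0194 to 0.288 in the others). Lymphocyte marker sums were 976 CPM in 6RC26 and 492.8 CPM in 6HF30, against 15.5 to 109.4 CPM in the others. Of these 2 sums, the single gene Igj gave 613.5 and 424.7 CPM. Cd4 was also higher in 6HF30 (5.44 CPM) than in any mouse but 6RC26 (41.7 CPM). Ptprc (25.9 CPM), Lck (4.36) and Ms4a1 (4.06) in 6HF30 lay within the range of the others. The acinar marker sum was 1364 to 12507 CPM on HFHS and 11984 to 37782 CPM on RC.

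Of 14386 genes tested, 43 (0.299%) passed an adjusted p of 0.05, 24 of them higher on HFHS (0.167%) and 19 lower (0.132%), by edgeR's quasi-likelihood test with Benjamini-Hochberg adjustment. At an unadjusted p under 0.05 there were 2132 of the 14386 genes, 1108 of them higher and 1024 lower. Over all genes tested 6791 log2 fold changes were positive and 7595 negative. DESeq2's Wald test called 312 of the same 14386 genes and limma voom 390. These counts are the background for the gene lists below. Among the 43 were 6 clock genes, 3 of them higher and 3 lower. Adcy1 and Cpt1a were higher, and Reg2, Reg3d, the acinar phospholipase gene Pla2g1b and the galanin gene Gal were lower. The per-mouse ranges did not overlap for 28 of the 43 genes, and for 65 of all 14386 (0.452%). In each of the 43, all 7 HFHS mice lay on the same side of the RC mean. Leaving out 1 mouse at a time gave 21 to 62 calls, and 18 of the 43 kept their call in all 15 of these fits. The count fell below 43 by over 1.5 times without 6HF25 (21 calls), 6HF29 (22), 6HF27 (23) or 6RC27 (26).

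**Figure D1:**
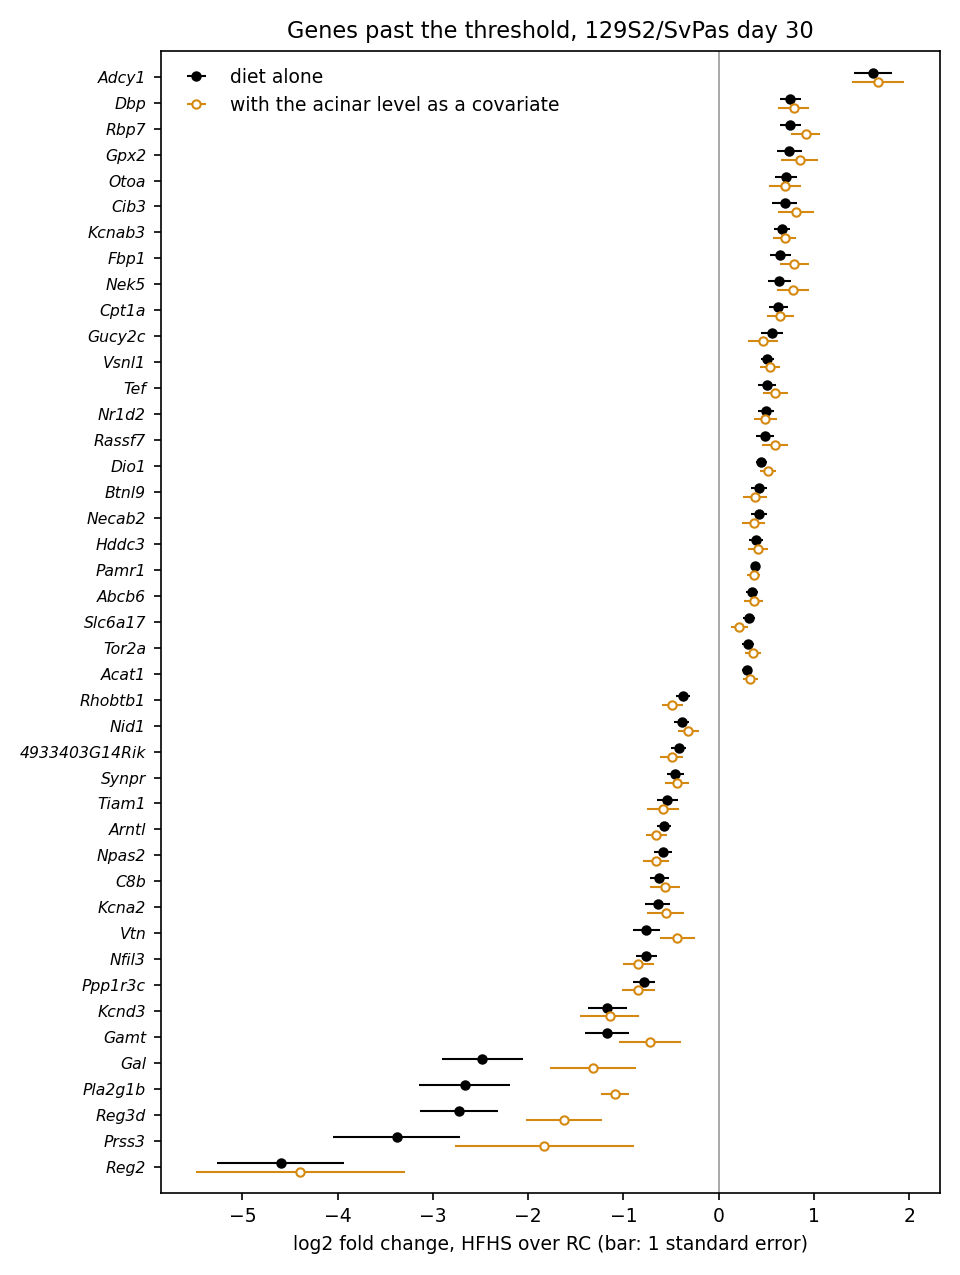
Log2 fold change (horizontal axis, HFHS over RC, with 1 standard error) of the 43 genes past the threshold, for 7 HFHS and 8 RC mice. Black points are the comparison of diets, open points the same fit with each library's mean acinar marker level as a covariate. In that fit 38 of the 43 calls were lost, and the bars are wider for all genes but Reg3d and Pla2g1b. The points of Gal, Pla2g1b, Reg3d, Prss3, Vtn and Gamt shift toward 0.

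Of 16 clock genes tested, 6 passed: Dbp, Tef and Nr1d2 rose, and Arntl, Npas2 and Nfil3 fell, while 10 did not pass. The median log2 fold change of the 16 was 0.23, beside -0.01 over all genes tested.

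The promoters of 3 of these genes are shown because they carry the letters through which the 2 arms of the clock are known to act. The other 3, Dbp, Nr1d2 and Npas2, held neither a ROR element nor an E-box in the windows searched. They were read from RefSeq on GRCm38.p6, 5′ to 3′ on the strand of the gene. Capitals mark a ROR element (TAGGTCA or its reverse complement) in Arntl and Nfil3, and an E-box (CACGTG) at each of the 2 starts of Tef. The Arntl stretch is at chr7:113207530-113207559 (+), with its element 31 bases after the downstream one of the 2 Arntl starts. The 250 bases before either Arntl start held no marked letters. The Nfil3 promoter is at chr13:52981040-52981289 (-) with the element on the opposite strand, and the Tef promoters are at chr15:81802423-81802672 and chr15:81811164-81811413 (both +). The last 3 give the 250 bases before the start.
Arntl: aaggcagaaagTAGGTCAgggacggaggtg
Nfil3: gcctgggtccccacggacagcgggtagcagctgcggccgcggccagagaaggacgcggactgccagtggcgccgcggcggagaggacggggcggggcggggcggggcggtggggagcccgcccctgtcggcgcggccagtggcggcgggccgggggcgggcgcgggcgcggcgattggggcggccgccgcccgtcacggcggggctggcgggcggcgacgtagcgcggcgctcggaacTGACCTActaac
Tef, start 1: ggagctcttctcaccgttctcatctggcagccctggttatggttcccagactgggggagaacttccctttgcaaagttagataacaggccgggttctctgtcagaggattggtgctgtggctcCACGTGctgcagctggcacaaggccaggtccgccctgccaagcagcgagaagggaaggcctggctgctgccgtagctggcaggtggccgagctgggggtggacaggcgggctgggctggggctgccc
Tef, start 2: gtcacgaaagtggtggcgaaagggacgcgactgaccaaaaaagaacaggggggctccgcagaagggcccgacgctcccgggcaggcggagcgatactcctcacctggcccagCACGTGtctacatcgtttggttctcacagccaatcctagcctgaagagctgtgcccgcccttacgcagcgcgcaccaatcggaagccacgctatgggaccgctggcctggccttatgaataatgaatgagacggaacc
Both strands of the windows from 250 bases before to 50 after each start were searched. The ROR element occurred in 2.61% of all 32851 windows (2.97% of 27025 genes), and among the 38 of 43 changed genes with a window only Arntl and Nfil3 held it. The E-box occurred in 7.15% of windows (8.09% of genes). Tef, Adcy1, Ppp1r3c and Rhobtb1 held it among the 38 changed genes, and so did the clock genes Per1, Cry1 and Bhlhe41, which did not pass. The D-box (TTATGTAA or TTACGTAA, 1.06% of windows), the cyclic AMP response element (TGACGTCA, 1.79%) and the direct repeat AGGTCANAGGTCA of PPAR (0.0396%) were in none of the 38. The ROR element, E-box and D-box were added to the search after the values were seen, and a match describes letters only.

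Arntl, the activator at the centre of the clock, was 16.2 to 24 CPM on HFHS (median 21.7) and 29.2 to 35 CPM on RC (median 31.4). Every HFHS mouse lay below every RC mouse. It fell by 0.58 on the log2 scale (SE 0.073, edgeR adjusted p = 0.00144). Npas2, the alternative partner of BMAL1, was 7.20 to 9.82 CPM on HFHS (median 7.41) and 10.6 to 14.2 CPM on RC (median 11.5), again with no overlap. Its log2 fold change was -0.58 (SE 0.0914, edgeR adjusted p = 0.0081). Nfil3 encodes E4BP4, which competes with DBP and TEF for the D-box. It ran from 18.8 to 30 CPM on HFHS (median 24.8) and from 28.9 to 52.5 CPM on RC (median 42.5), where 1 RC mouse fell inside the HFHS range. Its log2 fold change was -0.76 (SE 0.109, edgeR adjusted p = 0.0042).

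Dbp, the PAR bZIP activator of D-box genes, was 15.9 to 24.2 CPM on HFHS (median 21.3) against 9.19 to 15.2 CPM on RC (median 11.6). The ranges did not overlap, and the level was 1.69-fold higher (log2 0.75, SE 0.114, edgeR adjusted p = 0.00594). Tef, its close relative, was 70.7 to 98.6 CPM on HFHS (median 76.8) and 40.2 to 65 CPM on RC (median 59). No RC mouse reached the HFHS range, and the log2 fold change was 0.51 (SE 0.0912, edgeR adjusted p = 0.0201). Nr1d2, which encodes the repressor REV-ERB beta, was 69.7 to 95 CPM on HFHS (median 82) and 47.6 to 66.9 CPM on RC (median 59.1). It too was separated without overlap, at a log2 fold change of 0.49 (SE 0.0845, edgeR adjusted p = 0.0154).

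The 10 other members did not pass. Nr1d1, encoding REV-ERB alpha, had a log2 fold change of 0.33 (49.6 to 72.5 CPM on HFHS, 33.9 to 54.9 CPM on RC, edgeR adjusted p = 0.167). The period genes Per1, Per2 and Per3, repressors of BMAL1, had 0.37, 0.20 and 0.45, and Hlf, the third PAR bZIP gene, had 0.36. For Bhlhe40 the value was 0.25 and for Clock -0.26. Cry1, Cry2 and Bhlhe41 lay at 0.00, -0.00 and 0.02. The 2 diet groups overlapped in each of these 10.

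**Figure D2:**
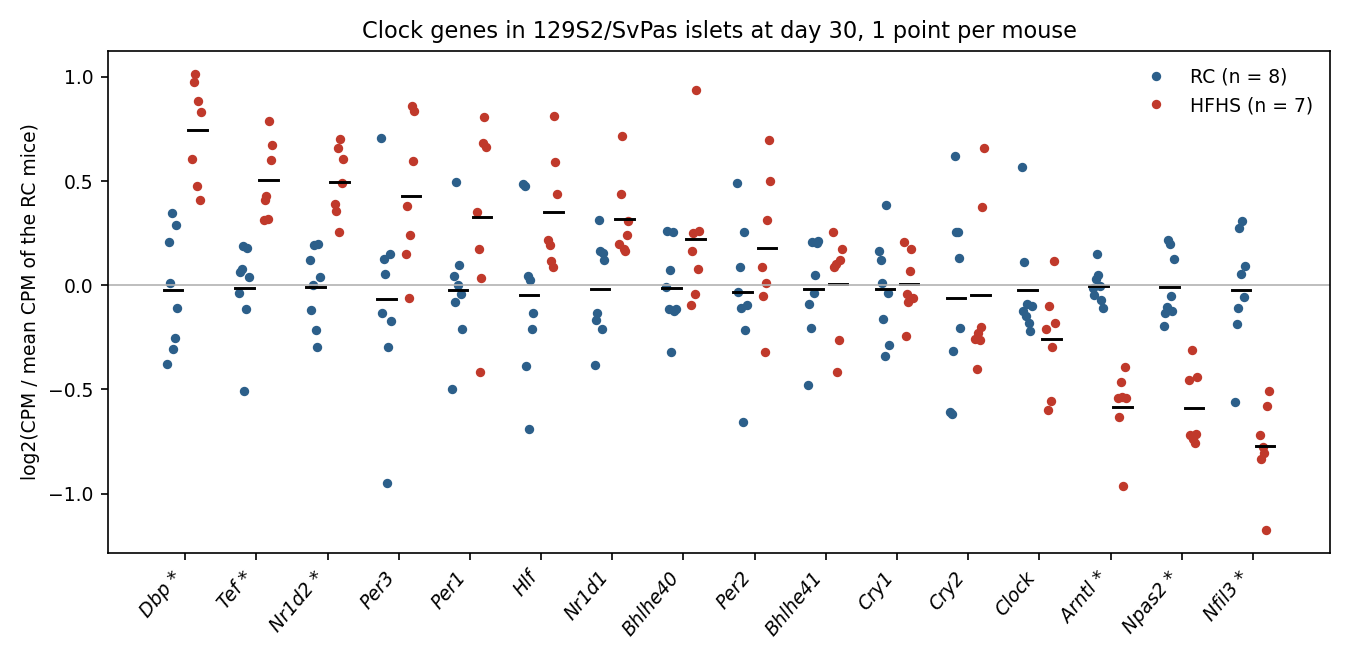
Level of the 16 clock genes in each mouse as log2 of CPM over the mean CPM of the RC mice (vertical axis), with RC (8 mice) in blue, HFHS (7 mice) in red and black bars at the means. Asterisks mark the 6 genes past the threshold. Dbp, Tef and Nr1d2 sit above the RC mice, Arntl and Npas2 below them, and Cry1 and Cry2 around 0.

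Of the 6 clock genes, 5 kept their call in all 15 fits that left 1 mouse out, and Tef had an adjusted p of 0.0524 without 6HF32. Without 6HF30 and 6RC26, the libraries with a high lymphocyte marker sum, Tef and Nr1d2 missed the threshold (edgeR adjusted p = 0.0535 and 0.0522). With the stellate marker level as a covariate they missed it too, and both had a log2 fold change of 0.31 (edgeR adjusted p = 0.08 and 0.0693). With the acinar covariate the 6 log2 fold changes ran from -0.84 to 0.79, and only Arntl passed (edgeR adjusted p = 0.0439). All 48 groups fitted together also left 1 clock call, that of Nfil3 and not of Arntl.

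Arntl was followed over the other days and strains, and the other changed clock genes over the strains. On RC, Arntl in 129S2/SvPas had a median of 37.2 CPM at day 10, 31.4 at day 30 and 25.9 at day 90. On HFHS the medians were 30.3, 21.7 and 18.6 CPM, below RC at each of these times. The diet effect on Arntl was -0.38 at day 10 (edgeR adjusted p = 0.713) and -0.46 at day 90 (edgeR adjusted p = 0.0677). At day 30 its value was negative in all 5 other strains, from -0.17 in C57Bl/6J to -0.75 in AKR/J, and the 129S2/SvPas effect did not pass as different from their mean (difference -0.23, SE 0.101, edgeR adjusted p = 0.21). Dbp likewise did not pass (difference 0.42, edgeR adjusted p = 0.264). Nfil3 did: its effect differed by -0.64 between 129S2/SvPas and the other strains, whose mean was -0.11 (SE 0.12, edgeR adjusted p = 0.000402). AKR/J, at -0.59, was the nearest strain for Nfil3, and the other 4 lay between -0.08 and 0.11. Tef also passed, at 0.41 above the mean of the other strains (edgeR adjusted p = 0.0101), though not when DBA/2J was left out (0.32, adjusted p = 0.138). Npas2 and Nr1d2 passed neither with DBA/2J nor without it (-0.32 and 0.26 without, edgeR adjusted p = 0.309 and 0.446). Since the labels give no clock time, the hour of sampling was not tested.

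Adcy1 showed the largest increase among the 43 genes. It encodes adenylyl cyclase 1, a calcium and calmodulin activated enzyme that makes cyclic AMP. Its level was 12 to 33.2 CPM on HFHS (median 19.7) and 4.47 to 9.42 CPM on RC (median 6.74), so that the lowest HFHS mouse was above the highest RC mouse. The increase was 3.08-fold (log2 1.62, SE 0.198, edgeR adjusted p = 0.00144), and it passed in all 15 fits that left out 1 mouse. Adcy1 was also among the 5 genes that kept their call with the acinar covariate (log2 1.67, adjusted p = 0.0439).

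Of 27 cyclic AMP genes tested, Adcy1 alone passed, 9 were positive and 18 negative, and the median log2 fold change was -0.02. Adra2a, the alpha 2A adrenoceptor that lowers cyclic AMP in beta cells, was 155.4 to 217 CPM on HFHS and 141.9 to 251 CPM on RC, with a log2 fold change of -0.25 (edgeR adjusted p = 0.291).

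The Adcy1 difference was present at other times in this strain. Its median on HFHS was 28.5 CPM at day 10 and 20 CPM at day 90, against 8.03 and 4.48 CPM on RC, with log2 effects of 1.65 (edgeR adjusted p = 3.71e-05) and 2.27 (7.26e-14). The day 30 effect did not pass as different from that of day 10 (-0.02, SE 0.305, edgeR adjusted p = 0.989) or day 90 (-0.63, SE 0.24, edgeR adjusted p = 0.474). In the other 5 strains Adcy1 was low on RC, with medians of 2.22 to 4.18 CPM, and its day 30 effects were 0.24 (AKR/J), 0.72 (BALB/cJ), 0.64 (DBA/2J), 0.91 (C57Bl/6J) and 0.87 (A/J). The effect in 129S2/SvPas exceeded their mean of 0.68 by 0.95 (SE 0.232, edgeR adjusted p = 0.0126). Without DBA/2J that difference was 0.93, with an adjusted p of 0.0731.

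Cpt1a, the carnitine palmitoyltransferase that admits long-chain fatty acids to mitochondria, rose 1.54-fold. It ran from 56.6 to 98.9 CPM on HFHS (median 82.1) and from 36.9 to 61.8 CPM on RC (median 53.2). The lowest HFHS mouse lay inside the RC range. The log2 fold change was 0.62 (SE 0.1, edgeR adjusted p = 0.00916). The increase did not differ detectably from that of the other strains: their mean was 0.66, and the difference was -0.03 (SE 0.113, edgeR adjusted p = 0.94). In 129S2/SvPas the effect was 0.99 at day 10 (edgeR adjusted p = 0.000171) and 0.39 at day 90 (edgeR adjusted p = 0.0812).

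The list of fatty acid oxidation and PPAR target genes had 28 members tested, and Cpt1a alone passed. In edgeR 14 were at an unadjusted p under 0.05, all higher, beside 2132 of 14386 over all genes. The log2 fold change was positive for 27, with a median of 0.20 against -0.01 over all genes. Acadvl, the very long chain acyl-CoA dehydrogenase, was 76.4 to 106 CPM on HFHS and 42.4 to 75.1 CPM on RC (log2 0.36, edgeR adjusted p = 0.124). Etfb, the beta subunit of the electron transfer flavoprotein, was 60.1 to 78.5 and 24 to 57.6 CPM (log2 0.48, edgeR adjusted p = 0.127). Both were without overlap, and in both the lowest RC mouse was 6RC25. Acaa2, the mitochondrial 3-ketoacyl-CoA thiolase, was 32.7 to 81.3 and 18.3 to 34 CPM (log2 0.59, edgeR adjusted p = 0.168), with 6HF30 highest and 6RC25 lowest. Without 6HF30, 6RC26 and 6RC25, 22 of the 28 were positive and the median was 0.11.

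Ppargc1a, encoding the coactivator PGC-1 alpha, was 3.53 to 9.75 CPM on HFHS and 2.52 to 3.69 CPM on RC (log2 0.82, edgeR adjusted p = 0.0839). Acat1, which makes and uses acetoacetyl-CoA in ketone metabolism, passed at 107.6 to 128.2 CPM against 83.9 to 106 CPM without overlap (log2 0.30, edgeR adjusted p = 0.0193). Of 27 oxidative phosphorylation genes none passed, 26 were positive and the median was 0.13. At an unadjusted p under 0.05 by edgeR there were 14, beside 2132 of 14386 over all genes. DESeq2 and limma voom each called 1, beside 312 and 390 over all genes. Without 6HF30, 6RC26 and 6RC25, 26 were still positive and the median was 0.09. Cyc1, the cytochrome c1 gene, was the nearest at 0.22 (edgeR adjusted p = 0.125), with 6RC25 the lowest RC mouse. In fatty acid synthesis and esterification none of 14 passed, with 5 at an unadjusted p under 0.05. Dgat2, an enzyme of triglyceride assembly, had a log2 fold change of 1.53 (edgeR adjusted p = 0.243) and reached 41.2 CPM in 6HF30 against at most 7.30 CPM in the other HFHS mice.

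**Figure D3:**
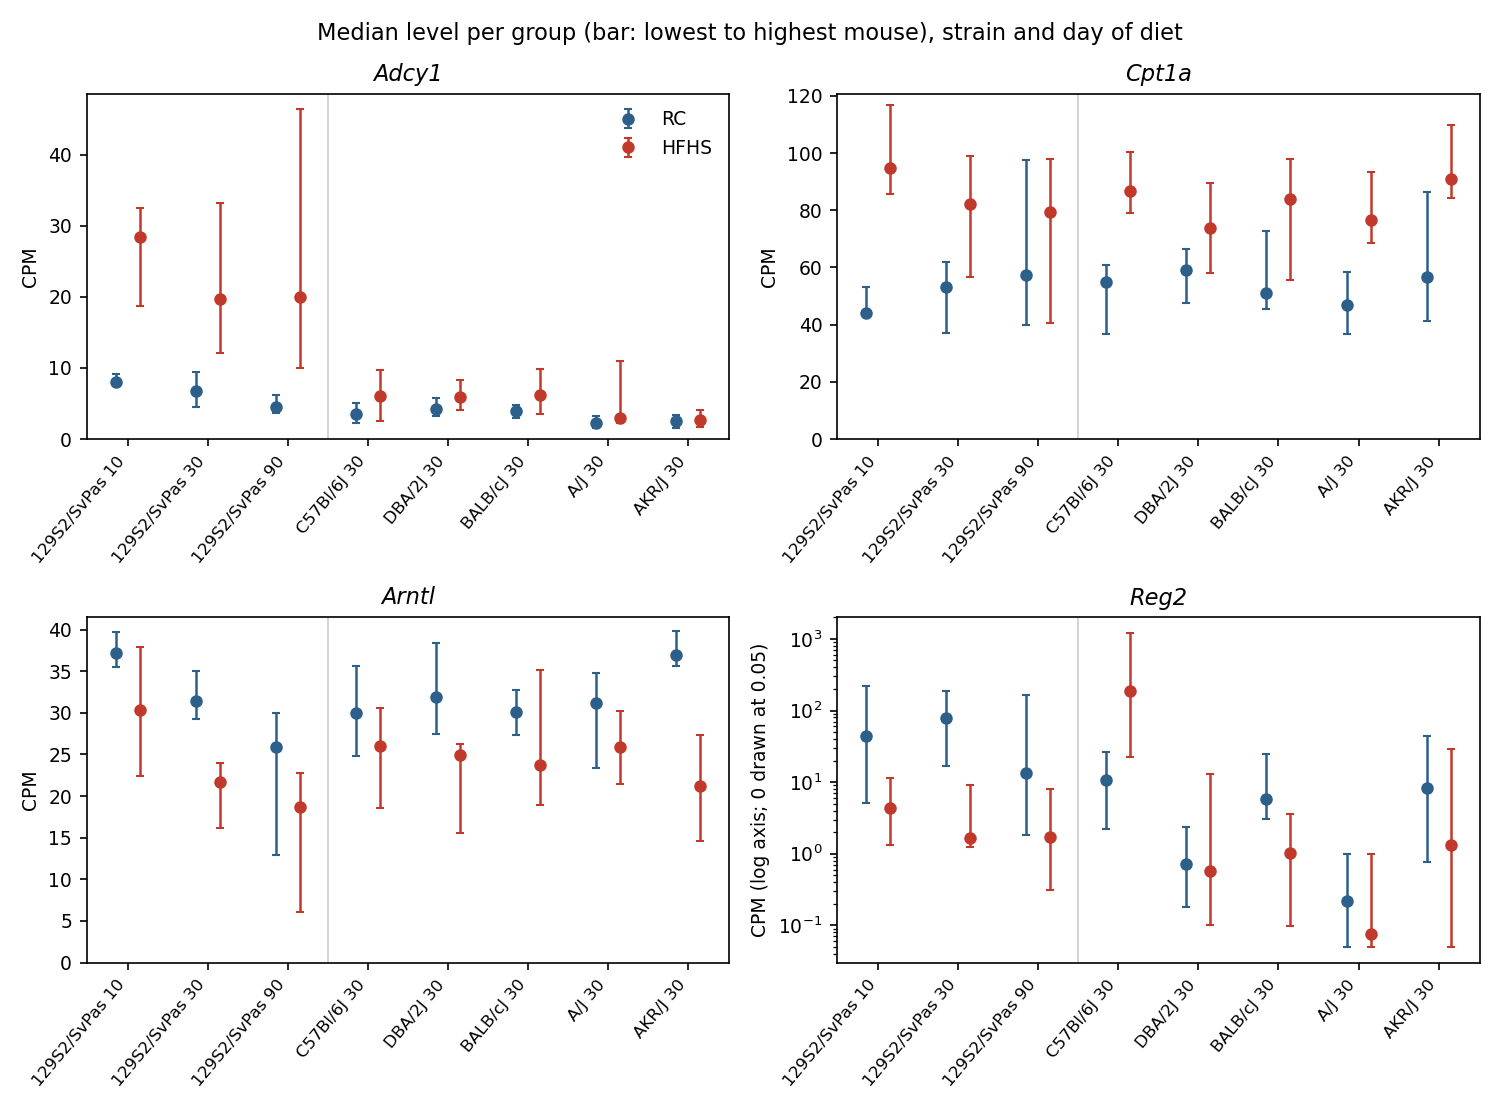
Median CPM (points) and range over mice (bars) of Adcy1, Cpt1a, Arntl and Reg2 by strain and day of diet, RC in blue and HFHS in red. The vertical axis is linear except for Reg2, where it is logarithmic. Adcy1 on HFHS stands highest in 129S2/SvPas at all 3 times, Cpt1a medians on HFHS lie between 73.8 and 94.7 CPM in the 8 conditions, and Reg2 on HFHS is below RC in 129S2/SvPas and above it in C57Bl/6J.

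Among the 43 genes the lowest log2 fold changes were those of Reg2, Prss3, Reg3d and Pla2g1b. Reg2, a member of the regenerating gene family of secreted C-type lectins, was 1.24 to 9.16 CPM on HFHS (median 1.66) and 16.6 to 186 CPM on RC (median 77.7). No HFHS mouse reached the lowest RC mouse. It fell by 4.60 on the log2 scale (SE 0.668, edgeR adjusted p = 0.00916). Reg3d, of the same family, was 0.276 to 2.84 CPM on HFHS and 4.09 to 16.2 CPM on RC, also without overlap (log2 -2.73, SE 0.406, edgeR adjusted p = 0.00774). Both passed in all 15 fits without 1 mouse.

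Of 5 Reg genes tested these 2 passed, and the family median was -2.55. The other 3 were lower by value. Reg1 was 15.9 to 378 CPM on HFHS and 208 to 832 CPM on RC (log2 -1.83, edgeR adjusted p = 0.205). Reg3a and Reg3b had -2.55 and -2.11 (edgeR adjusted p = 0.213 and 0.305).

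Pla2g1b, the secreted pancreatic phospholipase A2, was 1.21 to 15.7 CPM on HFHS (median 9.81) and 30.8 to 99.6 CPM on RC (median 48.9), with no overlap. It fell by 2.67 on the log2 scale (SE 0.476, edgeR adjusted p = 0.0325). It was the 1 acinar gene of 26 tested that passed, while 25 of the 26 were negative and their median was -1.51. DESeq2 called 14 of the 26 and limma voom 24, all lower. Among those edgeR did not call, the trypsin gene Try4 was 3.91 to 56.9 CPM on HFHS and 93.6 to 329 CPM on RC (log2 -2.49, edgeR adjusted p = 0.0904). Chymotrypsinogen Ctrb1 had -1.91 (edgeR adjusted p = 0.137), again without overlap. Prss3, a trypsinogen, passed at 0 to 0.637 CPM against 0.965 to 13 CPM (log2 -3.38, edgeR adjusted p = 0.0453), near the floor of 3 counts, 0.0998 to 0.2 CPM by library. Trypsin genes are near-identical copies, so reads may be split among them. In bulk RNA, fewer acinar cells and less RNA per acinar cell cannot be told apart.

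The acinar level moved with diet: 25 of 26 markers were lower on HFHS by value, with 2 further symbols of the list (Prss1, Amy2a5) at or near 0 in both groups. Its part in the other results was not tested beyond a fit with the mean acinar level as a covariate. In that fit 7 genes passed, 5 of them among the 43: Adcy1, Arntl, Dio1, Rbp7 and Pla2g1b. Pla2g1b is itself a member of the acinar list, so its value there (-1.09) is no independent result. The other 38 calls were lost, and the standard error was larger for all of them but Reg3d. Kcnab3, for example, had a log2 fold change of 0.69 (SE 0.121, adjusted p = 0.0522), against 0.66 (SE 0.0827) without the covariate. Since the acinar level moved with diet, the fit cannot separate the 2. Reg2 missed the threshold at a log2 fold change of -4.39 (SE 1.09, adjusted p = 0.129). The fold changes moved toward 0 by over 1.5 times for Prss3 (-1.83), Reg3d (-1.62), Gal (-1.32), Gamt (-0.72) and Vtn (-0.43).

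**Figure D4:**
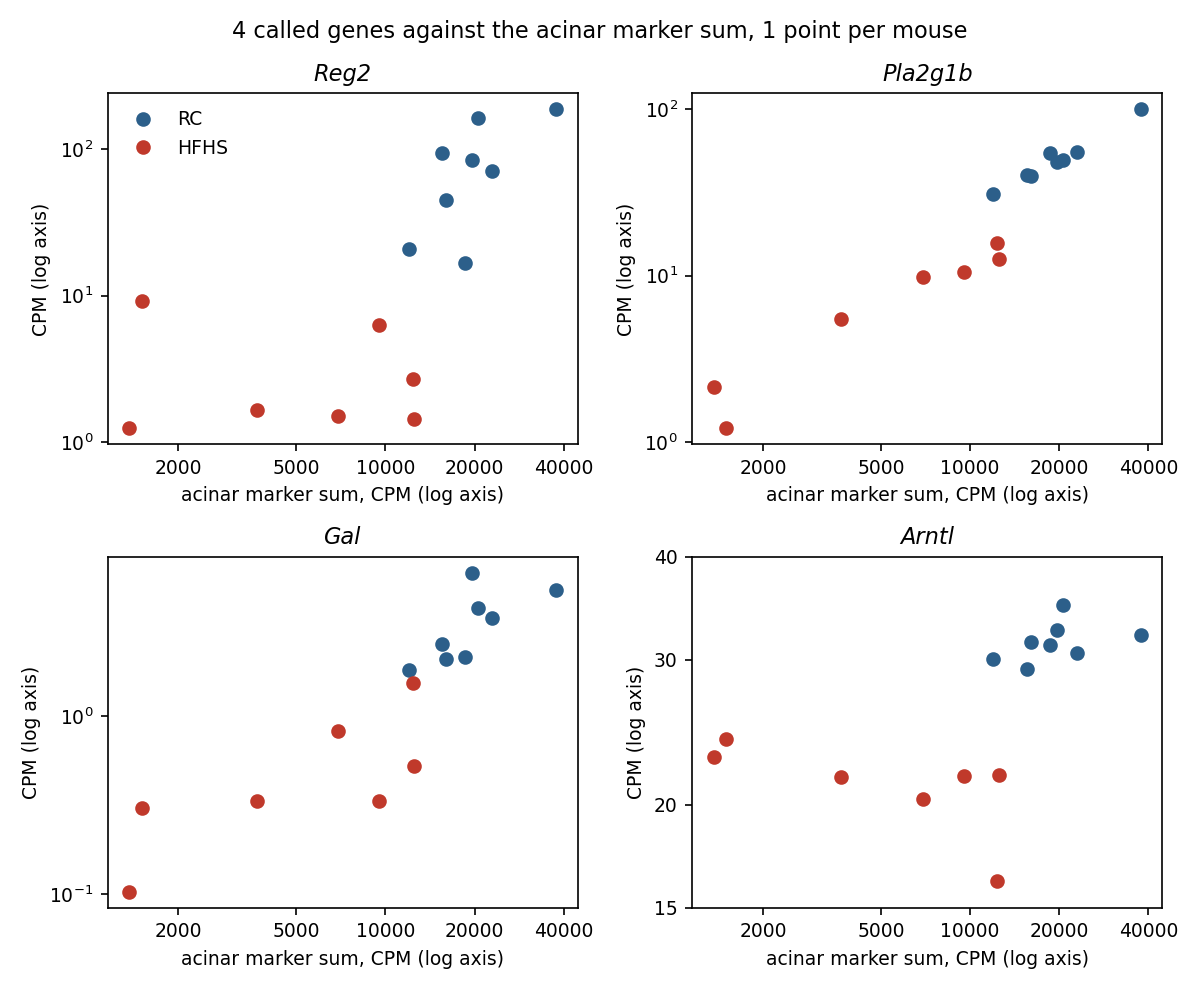
CPM of Reg2, Pla2g1b, Gal and Arntl (vertical, log axis) against the summed CPM of the acinar markers (horizontal, log axis) in each of 8 RC (blue) and 7 HFHS (red) mice. Pla2g1b is itself part of the acinar sum. The diet groups differ along both axes in each panel, and their acinar sums overlap only between 11984 and 12507 CPM, in 1 RC and 2 HFHS mice.

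Gal encodes galanin, a neuropeptide of islet nerves that inhibits insulin release. It was 0.103 to 1.52 CPM on HFHS (median 0.333) and 1.81 to 6.31 CPM on RC (median 3.02), with no overlap at a low level. It fell by 2.48 on the log2 scale (SE 0.425, edgeR adjusted p = 0.0156). It missed the threshold in 2 of the 15 fits without 1 mouse. Of 8 neuropeptide genes tested Gal alone passed, and 7 were negative with a median of -1.30. Vip, vasoactive intestinal peptide, had -1.81 (2.90 to 19.9 against 11.3 to 49.3 CPM, edgeR adjusted p = 0.0904). Tac1, the substance P precursor, had -1.49 (edgeR adjusted p = 0.0931) and Npy -1.22 (0.205). DESeq2 called 4 of these 8 genes and limma voom 5, all lower.

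Stromal and nerve markers were lower by value in the same mice. None of 16 stellate cell and fibroblast markers passed, while all 16 were negative (median -0.85, 11 at an unadjusted p under 0.05). DESeq2 called 0 of them and limma voom 3. Their summed level was 305 to 871 CPM on HFHS and 485 to 840 CPM on RC. Col3a1, a fibrillar collagen gene, was 25.5 to 157.8 CPM against 77.4 to 146.4 CPM (log2 -0.84, edgeR adjusted p = 0.291). The microfibril gene Mfap4 had -1.37 (edgeR adjusted p = 0.246) and Col6a3 -0.84 (0.28). None of 12 neuron and Schwann cell markers passed in edgeR, 5 did at an unadjusted p under 0.05, and all 12 were negative (median -0.77, summed level 27.1 to 56.5 CPM against 30 to 89.3 CPM). Endothelial markers were level, with a median of -0.04 over 12 genes and sums of 800 to 1084 CPM against 730 to 1034 CPM. The part of nerve and stromal cells in the Gal result was not tested.

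With the stellate level as a covariate Gal had a log2 fold change of -2.39 (adjusted p = 0.0574), and 37 genes passed as higher and 94 as lower, 23 of them among the 43. The stromal matrix gene Nid1, which encodes the basement membrane protein nidogen 1, was among the 43 at 35 to 48.8 CPM against 46.4 to 60.9 CPM (log2 -0.39, edgeR adjusted p = 0.0319). It was -0.25 in that covariate fit and no longer passed (adjusted p = 0.105). Vtn, the adhesive plasma protein vitronectin, was 9.47 to 17 CPM against 13.9 to 28.4 CPM (log2 -0.76, edgeR adjusted p = 0.0319). It had -0.56 with the stellate covariate (adjusted p = 0.0868) and -0.43 with the acinar covariate (0.368), and lost its call in 9 of the 15 fits without 1 mouse.

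Pamr1 and Kcnab3 were among the genes with the smallest p values. Pamr1, a secreted peptidase-domain protein, was 90.8 to 104.3 CPM on HFHS and 62.2 to 82.8 CPM on RC, without overlap (log2 0.38, SE 0.0463, edgeR adjusted p = 0.00144). Kcnab3, a beta subunit of voltage-gated potassium channels, was 22.4 to 27.7 CPM and 11.6 to 19.1 CPM (log2 0.66, SE 0.0827, edgeR adjusted p = 0.00144), also without overlap. Kcna2 and Kcnd3, which encode pore-forming subunits of potassium channels, were also among the 43. Kcna2 was 4.31 to 9.10 CPM against 8.78 to 10.8 CPM (log2 -0.64, edgeR adjusted p = 0.0442), and Kcnd3 was 0.652 to 1.19 CPM against 1.14 to 2.94 CPM (log2 -1.17, edgeR adjusted p = 0.0156). In both the groups overlapped, and Kcna2 lost its call in 14 of the 15 fits without 1 mouse.

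Dio1, Fbp1 and Gpx2 encode enzymes and were among the higher genes. Dio1, the deiodinase that converts thyroxine to its active form, was 51.7 to 61.3 CPM on HFHS and 36 to 44.9 CPM on RC (log2 0.45, SE 0.0576, edgeR adjusted p = 0.00144), without overlap. Fbp1, the gluconeogenic fructose bisphosphatase, was 44.6 to 77.6 CPM and 27.9 to 37.5 CPM (log2 0.64, edgeR adjusted p = 0.0153), with 6HF30 the highest. Without 6HF30 and 6RC26 its log2 fold change was 0.52 (adjusted p = 0.00375). Gpx2, a glutathione peroxidase, was 8.39 to 13.2 CPM and 4.06 to 8.10 CPM (log2 0.74, edgeR adjusted p = 0.0197). It was the 1 called gene of 19 antioxidant genes, whose median was 0.10, and Gpx4 had 0.32 (edgeR adjusted p = 0.171).

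Rbp7, a retinoid-binding protein of the cytosol, rose from 8.60 to 17.5 CPM on RC to 19.9 to 25.4 CPM on HFHS (log2 0.75, SE 0.112, edgeR adjusted p = 0.00555), and Otoa, which encodes otoancorin, from 7.91 to 13.2 CPM to 14.1 to 22.9 CPM (log2 0.70, edgeR adjusted p = 0.0101). Vsnl1, a neuronal calcium sensor protein, was 11.9 to 14 CPM on HFHS and 8.15 to 11 CPM on RC (log2 0.51, edgeR adjusted p = 0.0042). All 3 were separated without overlap. Gucy2c, guanylate cyclase C, was the 1 called gene of 8 tested that are low in mature beta cells, at 38.7 to 64.6 CPM against 30.3 to 44.8 CPM (log2 0.56, edgeR adjusted p = 0.0416). It lost its call in 11 of the 15 fits without 1 mouse. Aldh1a3, an aldehyde dehydrogenase of that list, was 28.1 to 47.6 CPM against 14 to 37.4 CPM (log2 0.63, edgeR adjusted p = 0.167), and Neurog3 had 0.45 (0.28).

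Among the lower genes, Ppp1r3c, which targets protein phosphatase 1 to glycogen, was 6.12 to 9.22 CPM on HFHS and 9.56 to 18.7 CPM on RC, without overlap (log2 -0.78, SE 0.116, edgeR adjusted p = 0.00544). C8b, a chain of the complement membrane attack complex, was 9.85 to 12.1 CPM against 13.2 to 23.1 CPM, again without overlap (log2 -0.62, edgeR adjusted p = 0.01). Gamt, the methyltransferase that completes creatine, was 0.965 to 2.13 CPM against 1.60 to 5.69 CPM (log2 -1.18, edgeR adjusted p = 0.034). The other lower genes were Tiam1, Synpr, Rhobtb1 and 4933403G14Rik, at -0.54 to -0.38. The other higher genes, Cib3, Nek5, Rassf7, Btnl9, Necab2, Hddc3, Abcb6, Slc6a17 and Tor2a, lay between 0.31 and 0.69.

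The hormone genes did not pass. Ins1 and Ins2 had log2 fold changes of 0.15 and 0.13 (edgeR adjusted p = 0.406 and 0.435), Gcg -0.28 (0.292), Sst -0.05 (0.76) and Ppy -0.05 (0.951). Elovl2, a fatty acid elongase that the series names in its title, was 34.8 to 46.5 CPM on HFHS and 34.4 to 48.8 CPM on RC (log2 -0.08, SE 0.0818, edgeR adjusted p = 0.63). Of 23 beta cell genes none passed in edgeR, with 6 at an unadjusted p under 0.05, 1 called by DESeq2 and 2 by limma voom, and the median was 0.00. Alpha cell genes (10, median -0.04) and delta and PP cell genes (6, median 0.07) held no call in edgeR either, with 3 and 2 at an unadjusted p under 0.05. DESeq2 called 1 alpha cell gene and limma voom 2, and neither called a delta or PP cell gene.

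None of 36 cell cycle genes passed, although 35 were negative (median -0.44) and 15 had an unadjusted p under 0.05. DESeq2 called 3 and limma voom 1, all lower. Ccnb2, cyclin B2, was 0.343 to 1.51 CPM against 1.14 to 3.19 CPM (log2 -1.07, edgeR adjusted p = 0.131), and the spindle genes Tpx2 and Prc1 had -0.73 and -0.65 (edgeR adjusted p = 0.146 and 0.147). Without 6HF30 and 6RC26, whose lymphocyte marker sums were high, 30 of the 36 were negative and the median was -0.20. Lists of cholesterol synthesis (24 tested, median 0.04), ER stress and protein folding (27, -0.02), insulin granule exocytosis (24, 0.04) and interferon response (22, -0.13) held no call in edgeR. At an unadjusted p under 0.05 they held 1, 3, 4 and 3 genes, beside 2132 of 14386 over all genes tested. DESeq2 and limma voom each called 1 gene of the exocytosis and 1 of the interferon list, and none of the other 2 lists.

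Against the mean diet effect of the other 5 strains at day 30, the effect in 129S2/SvPas differed for 446 of 15564 genes (2.87%), 192 higher and 254 lower, by edgeR's quasi-likelihood test over 95 mice. Among the 43 genes of this diet response 14 differed. In DBA/2J 8630 of the 15564 genes (55.4%) passed in the same diet comparison, and without that strain 39 genes differed, 5 of them among the 43: Nfil3, Kcnab3, Reg2, Vtn and Hddc3. Fitted with all 48 groups together, 22 differed. The smallest p values of the 446 belonged to genes whose difference was lost without DBA/2J, such as Scand1, where the 129S2/SvPas effect was 0.24 and the mean of the others 1.71.

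Reg2 had the largest strain difference among the 43. Its effect was -4.59 in this fit, against values that ran from -2.68 (BALB/cJ), -1.17 (AKR/J) and -0.11 (A/J) to 1.93 (DBA/2J) and 4.91 (C57Bl/6J), a difference from their mean of -5.16 (SE 1.02, edgeR adjusted p = 0.00133). In C57Bl/6J the Reg2 median was 189 CPM on HFHS and 10.8 CPM on RC, and the BALB/cJ medians were 1.03 and 5.82 CPM. Without DBA/2J the difference was -4.83 (adjusted p = 0.0335). Kcnab3 had an effect 0.44 above the mean of the other strains (edgeR adjusted p = 0.00903), and Hddc3 0.36 (0.00727). For Vtn the difference was -0.78 (edgeR adjusted p = 0.00448), and the other strains averaged 0.03.

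The 43 genes were then followed in mice that did not choose them. Their fold changes had the same sign in 42 genes for AKR/J, 40 for BALB/cJ, 36 for A/J, 33 for DBA/2J and 28 for C57Bl/6J at day 30. The share of all genes with the same sign was 65.1, 66.3, 45.6, 65.9 and 61.3% in these strains, in that order. The 43 passed with that sign in 24 cases in AKR/J, where 4.65% of all genes passed, 25 in DBA/2J (55.4%), 17 in BALB/cJ (17.7%), 8 in C57Bl/6J (4.25%) and 8 in A/J (0.315%). At the other times in 129S2/SvPas, 37 had the same sign at day 10 and 39 at day 90, where the shares of all genes were 47.3 and 51.3%, and 2 and 5 of them passed (0.0259 and 0.317% of all genes).

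No gene passed as different between day 30 and day 10, or between day 30 and day 90, in 129S2/SvPas by edgeR (0% of 15450 genes in both). There were 1208 and 1378 genes at an unadjusted p under 0.05. Limma voom called 386 and 23 genes, and edgeR on all 48 groups 6 and 17. For Arntl the day 10 and day 90 comparisons thus left the size of any change with time unresolved, as they did for Reg2, whose effects were -3.82 at day 10 (edgeR adjusted p = 0.272) and -3.76 at day 90 (edgeR adjusted p = 0.0124).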

How the data were processed

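RNA-seq of pancreatic islets was compared between 7 HFHS and 8 RC mice of 129S2/SvPas at day 30, grouped as labelled. Each library is a separate mouse, made from 200 ng of RNA with a kit that keeps no strand, so reads of overlapping genes cannot be told apart. The submitters' processing notes name the build mm9 and, without their order, edgeR, HTSeq 0.5.3p3, SAMtools 0.1.16 and TopHat 1.3.3. The authors deposited a raw count per gene for 21382 genes, used throughout. The deposited log2 normalized values served as an alternative only.

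Counts were filtered by filterByExpr, TMM-scaled and fitted with edgeR 4.0.16 (robust quasi-likelihood, prior count 2, R 4.3.3) on the 15 mice alone. The strain difference used the 12 groups at day 30, and the time differences 129S2/SvPas at days 10, 30 and 90, leaving out day 2. Adjusted p-values are Benjamini-Hochberg over all genes tested, at 0.05. The standard error is the log2 fold change over the square root of F. Levels are CPM without TMM, fold changes are TMM-scaled, and 3 counts were taken as the floor, which covers counting error only. No 2 libraries of a group were the same within counting error: over 49 pairs, chi-square divided by its degrees of freedom was at least 9.88. The script was tested on simulated data.

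Genes were named as the 15 largest changes in each direction and the 10 smallest p at a mean of at least 5 CPM, up to 4 members per list, the 6 smallest p of each difference test, and the hormone genes and Elovl2. All 43 called genes and all clock and Reg members were added after their values were seen. Members, the 33 gene lists and motifs were chosen with earlier results of these data known. Alternatives were DESeq2 1.42.0 (size factors and Wald test), limma 3.58.1 (voom and the deposited values), no filter, covariates, larger fits and leaving out each mouse. Libraries left out together and the stellate covariate were chosen after seeing the data. Promoters came from RefSeq (GRCm38.p6), matched by symbol for 38 of the 43 genes, a build that differs from mm9.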

Additional observations from a re-analysis of the deposited data

Results flagged for a closer look

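Of 210 groups of 7 or 8 values examined, 33 had a highest or lowest mouse separated from the next by more than Dixon's 95% critical value, which chance alone gives in about 1 group in 20. The heat shock genes that stood out in 6RC30 were not among the groups examined. Most of these values come from 3 mice. The HFHS mouse 6HF30, which had the high lymphocyte marker sum of 492.8 CPM (next mouse 109.4), was the lowest of its group for Ppp1r3c (6.12 CPM, next 7.92) and Rhobtb1 (98.2, next 132.3). It was the highest for Fbp1 (77.6 CPM, next 50.8), Bhlhe40 (34.9, next 21.8), Acadvl (106.1, next 88.9) and Acaa2 (81.3, next 41.2). It was also the highest for Ppargc1a (9.75 CPM, next 4.87), Reg1 (378, next 135.9) and Dgat2 (41.2, next 7.30). The RC mouse 6RC25, with the GC slope of -0.37 (next 0.0194), was highest for Clock (208 CPM, next 151.2). It was the lowest for Acadvl (42.4 CPM, next 66.3), Etfb (24.0, next 47.1), Acaa2 (18.3, next 28.9), Cyc1 (44.9, next 56.95) and Gpx4 (5.66, next 8.37). The RC mouse 6RC27 had the highest acinar marker sum (37782 CPM, next 22983), and with it the highest Pla2g1b (99.6, next 55.0), Reg1 (832, next 458) and Ctrb1 (5994, next 3703).

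The other separated values were spread over 6 mice. In the RC mouse 6RC26 they were the lymphocyte sum (976 CPM, next 91.6), the macrophage sum (389, next 189) and Tpx2 (5.66, next 3.28). In the HFHS mouse 6HF26 they were the stellate cell sum (871 CPM, next 543), the neuron and Schwann cell sum (56.5, next 37.7), Vip (19.9, next 8.55) and Mfap4 (4.99, next 1.33). Reg3a and Reg3b were highest among RC mice in 6RC28 (8.14 CPM, next 2.68, and 21.9 CPM, next 9.46), and Reg3b among HFHS mice in 6HF31 (7.07, next 1.41). Prss3 stood out in 6RC29 (13.003 CPM, next 5.14) and Adra2a in 6HF32 (217 CPM, next 177). Each was the highest of its group.

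Among the genes named, 25 had a diet effect at day 30 that differed between 129S2/SvPas and the mean of the other 5 strains (edgeR adjusted p under 0.05, log2 differences). Those with a higher value in 129S2/SvPas were Dgat2 (1.43), Adcy1 (0.95), Aldh1a3 (0.89), Ppargc1a (0.87), Nek5 (0.56), Kcnab3 (0.44), Tef (0.41), Hddc3 (0.36) and Slc6a17 (0.27). For Dgat2 and Ppargc1a, 6HF30 was the separated mouse above. Exocrine and Reg genes had the lowest values: Reg2 (-5.16), Prss3 (-3.41) and Reg3d (-2.74). Other genes with a lower value were the cyclin gene Ccnb2 (-1.09), the creatine enzyme gene Gamt (-1.30), Vtn (-0.78), Nfil3 (-0.64), Ppp1r3c (-0.52), Adra2a (-0.43) and Rhobtb1 (-0.28). The 6 genes with the smallest p of this difference had values of -1.47 for Scand1, -1.36 for Nrtn, -1.25 for Nptxr, -0.91 for C1qtnf4, -0.66 for Prr7 and -0.39 for Zfp865.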

How the results depend on the processing

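The count of 43 genes for the diet effect was within 1.5 times under DESeq2 size factors (43), without a filter on low counts (38) and with limma on the deposited log2 values (49). It was also within 1.5 times without 6HF30 and 6RC26 (33) or these and 6RC25 (53). Those last 2 fits held 26 and 32 of the 43 genes. It was 312 by DESeq2's Wald test and 390 by limma voom. The 12 groups at day 30 in 1 edgeR fit gave 916 genes, 42 of them among the 43. All 48 groups gave 85, only 13 of them among the 43. With the acinar level as a covariate 7 genes passed. Against 24 higher and 19 lower genes as reported, the GC slope as a covariate gave 36 and 75, and the stellate level 37 and 94. Leaving out 1 mouse gave 21 to 62 genes, and 18 of the 43 passed in each of those 15 fits. With the mouse number as a replicate block no gene passed in edgeR, and 1892 had an unadjusted p under 0.05. Over 7 shared numbers the correlation of deviations ran from -0.345 to 0.179, with 2 over 0.1, and 0 HFHS mice correlated best with their own number. Whether equal numbers mark a shared batch cannot be told from these correlations. The difference in insulin share was 1.26 to 2.36 points when 1 mouse was left out, and passed without 6HF30 (exact permutation p = 0.0393) or 6RC30 (0.0373).

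The strain difference was 446 genes, against 413 with DESeq2 size factors, 341 without a filter, 1160 by limma voom, 22 with all 48 groups and 39 without DBA/2J. Without DBA/2J the difference turned positive for Prr7 (0.418), C1qtnf4 (0.197), Scand1 (0.0497), Nrtn (0.0439) and Nptxr (0.0352), and none of these passed in that edgeR fit. The time differences rose from 0 genes to 386 (day 10) and 23 (day 90) by limma voom, and to 6 and 17 with all 48 groups. The cause of these changes was not tested. At these depths, genes under about 1 CPM, such as Prss3 and Gal on HFHS, rest on few counts.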
